A study of Arabidopsis thaliana with 30 samples.

Results

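The response to antimycin A was examined in 6OX, an Arabidopsis line that overexpresses the mitochondrial calcium uniporter gene MCU6. It rests on 6 of the 30 RNA-seq libraries of the study, chosen by their labels alone: 3 libraries labelled AA and 3 labelled CK, each from whole 10-day-old seedlings. By the methods, seedlings of both groups first spent a night in darkness, shaken in liquid medium. AA seedlings then received 50 µM antimycin A, for 5 h by the sample labels (the study's methods state a shorter treatment), and CK seedlings received the DMSO solvent. By the methods the overexpressors carry the MCU coding sequence fused to YFP behind the 35S promoter in Col-0, so both groups carry the transgene and it is driven in nearly all cells. Further pairs of groups, AA and CK libraries of the wild type Col and of the MCU4 overexpressor 4OX (3 libraries each), serve only for comparison. The methods name 3 biological replicates per treatment. Neither they nor the labels say whether replicates came from separate cultures, so p-values measure the spread between these libraries.

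The headings of the deposited tables disagree about these libraries. The 3 columns headed AA in the table of the 6OX treatment hold, in all 23063 genes listed in both tables (100%), exactly the reads of the 3 columns headed 6OX CK in the table that sets 6OX against Col. The columns headed CK in the treatment table are other libraries, with equal reads in only 1.66% to 2.12% of genes. Which heading is wrong cannot be told from the tables, so the libraries are called here by the headings of the treatment table, as labelled AA and labelled CK. As background, AOX1A transcript is known to rise under antimycin A, and here it was lower under the AA label in 6OX, Col and 4OX (log2 fold changes -1.71, -0.97 and -1.56). Every direction below depends on the heading, and all signs would turn if the 2 headings were exchanged, whereas sizes, errors and p-values within 6OX would not. The tests of 6OX against other lines would change if headings were exchanged in 1 table only.

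Antimycin A blocks complex III of the mitochondrial electron transport chain. Plants have a bypass, in which alternative NAD(P)H dehydrogenases feed electrons into the ubiquinone pool and the alternative oxidase (AOX) passes them to oxygen without pumping protons. Block of the chain is known to set off mitochondrial retrograde signalling, in which membrane-bound NAC transcription factors such as NAC017 and NAC013 are released and act on nuclear genes with a mitochondrial dysfunction motif, among them AOX1A, UPOX and the UGT74E2 glucosyltransferase. The uniporter is the channel through which calcium enters the matrix, and MICU is its calcium-sensing regulator.

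The 6 libraries held 18321760 to 33895759 reads assigned to genes, and the values are read counts divided by 1 size factor per library (normalized counts). Of 23363 genes listed, 23022 had a mean of at least 1 and were tested with limma on log2(normalized count + 1). Genes past a fold change of 1.5 were called when the p-value, adjusted by Benjamini-Hochberg, was under 0.05. Nuclear ribosomal RNA took 1.32%, 0.269% and 2.02% of reads in the libraries labelled CK and 0.296%, 0.277% and 1.24% in those labelled AA, so both groups hold libraries of either kind.

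Between the labels, 6055 genes (26.3% of those tested) were called, 2906 higher (12.6%) and 3149 lower (13.7%) in the libraries labelled AA. More than 4-fold differences were found for 681 genes called higher and 749 called lower, and more than 8-fold differences for 239 and 245. The 2 groups did not overlap in 10272 genes (44.6%). Scaled by library totals instead, 7328 genes were called and 5173 of them (70.6% against 48.0%) were higher, with the median log2 fold change over all genes at 0.30 in place of 0.02, so small differences depend on the scaling. These shares are the background for every count below, and lists are described by counts and medians. In a whole seedling, fewer cells of a type and less RNA per cell cannot be told apart.

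**Figure D1:**
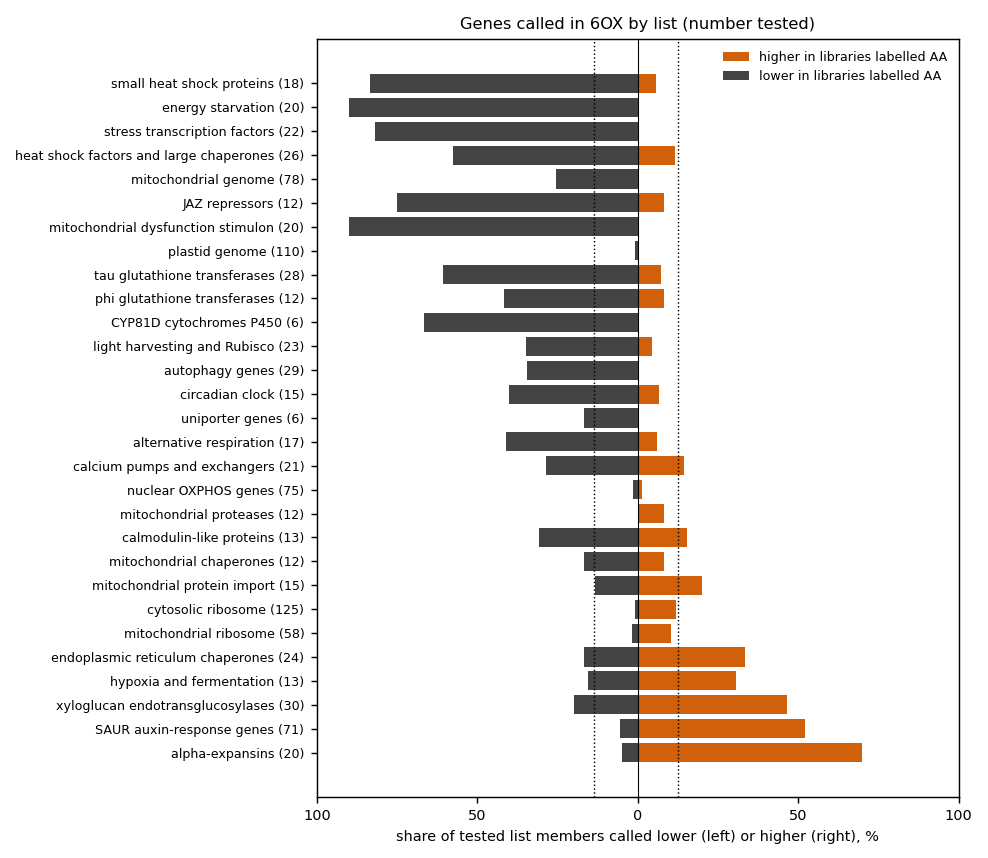
Share of the tested genes of each list (number tested in brackets) called lower (grey, left) or higher (orange, right) in the 3 libraries labelled AA against the 3 labelled CK of 6OX, in percent. Dotted lines mark the shares over all genes tested, 13.7% lower and 12.6% higher. Lists of heat shock, stimulon, starvation and stress factor genes reach far to the left, and expansins and SAUR genes far to the right.

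Of the 6 genes on the uniporter list (MCU1 to MCU4, MCU6 and MICU), the targeted gene was the one called, though 3 were called lower when AA-labelled library 1 was left out. MCU6 (AT5G66650) stood at 1655, 1632 and 1610.3 normalized counts in the libraries labelled CK and at 535, 897 and 799 in those labelled AA. The groups did not overlap, and MCU6 was lower under the AA label by 1.17 on the log2 scale (limma SE 0.19, adjusted p = 0.00143). Scaled together with the other lines, MCU6 was at 1684 ± 26.2 (SD, n = 3) in 6OX labelled CK and 771 ± 194 in 6OX labelled AA, against 884 ± 79.2 and 243 ± 59.6 in Col and 602 ± 63.0 and 119 ± 24.9 in 4OX. Under each label every 6OX library was thus above every Col and 4OX library. Reads of the transgene and of the gene's own locus cannot be told apart in these counts.

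MCU6 also fell in the other lines. Its log2 fold change was -1.17 in 6OX, -1.87 in Col and -2.35 in 4OX, and the difference was 0.72 against Col (limma adjusted p = 0.28) and 1.18 against 4OX (limma adjusted p = 0.453), neither past the threshold. MICU was at 5414, 5506 and 5720.3 labelled CK and at 4526, 3973 and 3415 labelled AA, without overlap, a log2 change of -0.49 (limma SE 0.15, adjusted p = 0.0334) that passed the p but not the fold threshold. MCU1, MCU2 and MCU3, other pore-forming members, were not called (log2 fold changes -0.33, 0.17 and -0.10). MCU4 was low in all 6 libraries, at 27.8, 7.92 and 4.73 against 8.84, 0 and 0.944, and was not called (limma adjusted p = 0.13).

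Of 17 genes on the alternative respiration list, 7 were called lower under the AA label and 1 higher, and 9 were not called. Besides genes of the bypass the list holds uncoupling proteins and dicarboxylate carriers. The genes called lower included AOX1 genes and alternative NAD(P)H dehydrogenases that act with them. The median log2 fold change was -0.27, and scaled by library totals it was 0.00383, with 7 genes lower and 2 higher. AOX1D (AT1G32350), an alternative oxidase, stood at 5944, 4361 and 3662 normalized counts labelled CK and at 172, 831 and 160.5 labelled AA. The groups were far apart, with the highest AA-labelled library well under the lowest CK-labelled one, and the fall was 4.0 on the log2 scale (limma SE 0.53, adjusted p = 0.000474). AOX1A (AT3G22370), the main stress-inducible alternative oxidase of Arabidopsis, was at 20536, 23078 and 19192 labelled CK and at 5363, 9233 and 5272 labelled AA. It was lower in all 3 AA-labelled libraries, by 1.71 on the log2 scale (limma SE 0.24, adjusted p = 0.00066).

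Dehydrogenases on either face of the inner membrane fell alongside. NDA2, an internal NADH dehydrogenase, was at 2024, 1999 and 1415 labelled CK and 544, 732 and 456 labelled AA, a log2 change of -1.66 (limma SE 0.21, adjusted p = 0.000351). NDB2, an external NADH dehydrogenase, went from 6032, 4436 and 4564 to 1237, 2583 and 1349, a log2 change of -1.61 (limma SE 0.26, adjusted p = 0.00155). For both genes the groups did not overlap. AOX1B (log2 fold change -1.63) and the dicarboxylate carrier DIC3 (-1.19) were also called lower. NDB3 was called lower (-1.78, limma adjusted p = 0.0224), but not without CK-labelled library 1, AA-labelled library 1 or AA-labelled library 3, where the adjusted p reached 0.079. The calcium-dependent NDB1, the plastid-linked NDC1, NDA1, NDB4, UCP1, DIC1 and DIC2 lay between -0.27 and 0.10 on the log2 scale and were not called.

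UCP2, an uncoupling protein, was the one member called higher. It was at 172, 142 and 104 normalized counts labelled CK and at 303, 309 and 277 labelled AA, without overlap, a rise of 1.11 (limma SE 0.23, adjusted p = 0.00485). AOX1C, a low gene, was not called (log2 fold change 1.02, limma adjusted p = 0.0907). AOX2 had only 15 reads over the 3 libraries labelled CK and 2 over those labelled AA, a ratio of 10.2 with a 95% counting interval of 2.37 to 91.9, and was not called.

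The mitochondrial dysfunction stimulon, nuclear genes known as common targets of retrograde signalling, was lower under the AA label almost throughout. Of 20 genes, 18 were called lower and none was called higher, with a median of -1.25. The other members AT12CYS-1 (-0.31) and the sensor NAC017 (-0.16) also had negative log2 fold changes. Scaled by library totals, 12 were called lower (median -0.97), and without CK-labelled library 1 or AA-labelled library 1 the number was 15. GSTU25, a tau glutathione transferase, stood at 6554, 5254 and 4959 normalized counts labelled CK and at 229.7, 476 and 149 labelled AA, a log2 change of -4.45 (limma SE 0.34, adjusted p = 3.37e-05). CYP81D8, a cytochrome P450, was at 25874, 29195 and 22706 against 3815, 6424 and 3397 (-2.56, limma SE 0.25, adjusted p = 9.15e-05). UPOX (AT2G21640), a mitochondrial protein induced by oxidative stress, was at 5567, 5378 and 4676 against 2319.7, 2814 and 1765, a log2 change of -1.20 (limma SE 0.18, adjusted p = 0.00104). In each of these genes the groups were clearly apart, and within the AA-labelled libraries replicate 2 was the highest.

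Further stimulon members were lower as well. GSTU24 (-2.83 on the log2 scale), the glucosyltransferase UGT74E2 (-2.52), the transcription factors NAC053 (-2.25) and NAC013 (-1.33), and the outer membrane protein OM66 (-1.29) were all called lower. The call of TIM17-1, an inner membrane translocase subunit (-1.19), ended when any library other than AA-labelled library 2 was left out, with adjusted p up to 0.162, whereas without AA-labelled library 2 it was 0.000563. No stimulon gene differed from Col or 4OX by the interaction test described at the end.

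**Figure D2:**
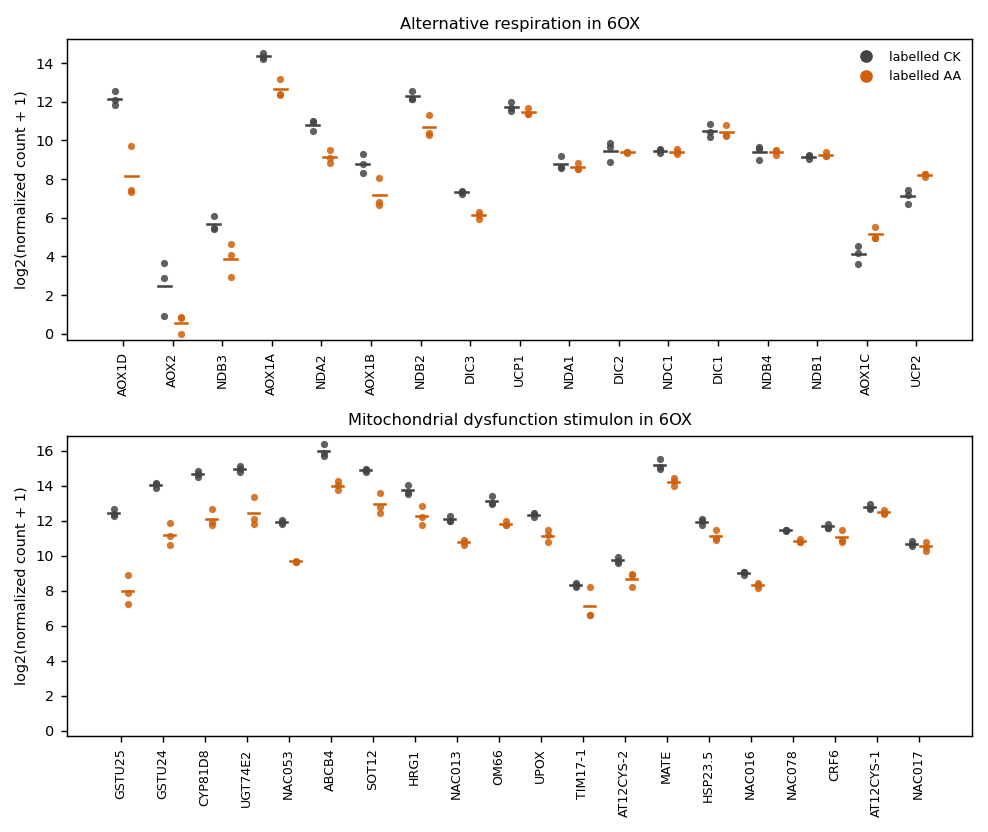
Level of each alternative respiration gene (top) and each stimulon gene (bottom) in 6OX, as log2(normalized count + 1), with 1 point per library (grey, labelled CK, orange, labelled AA) and bars at the mean of 3 libraries. Genes are ordered by log2 fold change within a panel. AOX1D and GSTU25 show the widest gaps of the called genes, at -4.0 and -4.45, and UCP2 is the called gene that lies higher under the AA label.

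Promoters of 3 of these genes are printed because they carry the mitochondrial dysfunction motif in the 250 bases before the RefSeq gene start (TAIR10.1), with the motif in capitals and the sequence 5′ to 3′ on the gene's strand. The first is UPOX, the second CYP81D8 and the third NDB2.
UPOX, chr2:9254128-9254377, plus strand: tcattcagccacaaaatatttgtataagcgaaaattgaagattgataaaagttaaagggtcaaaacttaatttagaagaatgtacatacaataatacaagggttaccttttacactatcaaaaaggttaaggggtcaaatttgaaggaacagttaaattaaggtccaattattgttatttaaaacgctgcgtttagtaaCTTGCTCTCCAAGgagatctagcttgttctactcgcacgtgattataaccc
CYP81D8, chr4:17571744-17571993, minus strand: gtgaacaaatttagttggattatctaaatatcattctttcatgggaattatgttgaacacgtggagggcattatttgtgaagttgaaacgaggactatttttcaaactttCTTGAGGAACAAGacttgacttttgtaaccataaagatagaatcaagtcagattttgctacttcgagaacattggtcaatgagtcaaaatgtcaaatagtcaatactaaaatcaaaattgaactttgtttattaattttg
NDB2, chr4:2572177-2572426, plus strand: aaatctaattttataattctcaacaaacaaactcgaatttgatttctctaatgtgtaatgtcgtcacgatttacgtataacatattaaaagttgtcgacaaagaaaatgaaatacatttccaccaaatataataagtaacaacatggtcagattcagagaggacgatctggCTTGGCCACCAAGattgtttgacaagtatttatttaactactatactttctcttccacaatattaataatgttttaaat
The capitals start 51 bases before the gene start in UPOX, 140 in CYP81D8 and 79 in NDB2. The letters searched on both strands were CTTGNNNNNCAAG and CTTGNNNNNCACG, and 328 of 27443 protein-coding promoters (1.2%) held one of them, as did 236 of 21848 among tested genes (1.08%). A match was found in 5 of the 20 stimulon genes and in 4 of the 17 alternative respiration genes, and also in 4 of the 18 small heat shock genes described next (22.2%). In the stimulon 4 matches were among the 18 genes called lower and 1 among the other 2, and in alternative respiration 3 were among the 7 called lower and 1 among the other 10. The windows of AOX1A and AOX1D held none. A match is a description of letters and was not tested as a binding site.

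Small heat shock genes had the lowest median log2 fold change of all lists. Small heat shock proteins are chaperones that hold unfolding proteins and are nearly silent in unstressed leaves. Of 18 genes tested, 15 were called lower and 1 higher (2 higher without AA-labelled library 3), with a median log2 fold change of -4.01. HSP17.4 (AT3G46230), a cytosolic member, was at 2142, 2341 and 1708 normalized counts labelled CK and at only 23.3, 20.4 and 13.2 labelled AA, a fall of 6.72 on the log2 scale (limma SE 0.25, adjusted p = 2.06e-06). HSP17.6A was at 1519, 1439.8 and 1104 against 19.3, 14.9 and 5.66 (-6.70, limma SE 0.38, adjusted p = 1.01e-05). All CK-labelled libraries held both transcripts at high levels and all AA-labelled libraries at low levels.

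The falls covered several compartments. HSP22.0, of the endomembrane system, was at 194, 165 and 121 labelled CK and 0, 3.13 and 0.944 labelled AA (log2 fold change -6.31). The plastid HSP21 (-6.05), HSP26.5 (-5.85) and the mitochondrial HSP23.6 (-3.73) and HSP23.5 (-0.83) were called lower as well. HSP18.5 (0.27) and HSP15.4 (0.49) were not called. HSP14.7 went the other way, from 74.1, 43.1 and 33.1 to 120.5, 132 and 136, and was called higher (1.43, limma SE 0.33, adjusted p = 0.00896).

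Heat shock factors and large chaperones split by member. Of 26 genes, 15 were called lower and 3 higher, with a median of -1.62. DREB2A (AT5G05410), a transcription factor that acts upstream of HSFA3 in heat and drought, was at 1189, 1113 and 1066 labelled CK and 54.6, 61.9 and 55.7 labelled AA, a fall of 4.27 on the log2 scale (limma SE 0.17, adjusted p = 2.14e-06). HSFA2 (AT2G26150), the heat-inducible factor that sustains the response, was at 234, 235 and 192 against 41.8, 35.3 and 51.0 (-2.35, limma SE 0.25, adjusted p = 0.00017). In both genes the libraries within a label lay close together and the labels far apart. HSFA3 (-1.65), the co-activator MBF1C (-3.32), the disaggregase HSP101 (-2.84), HSP90-1 (-2.89), HSP70b (-3.42), ROF2 (-2.99) and BAG6 (-2.82) were called lower.

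Other members were not called or were higher. The master regulators HSFA1A, HSFA1B, HSFA1D and HSFA1E had log2 fold changes of 0.10, -0.00481, 0.08 and -0.48 and were not called. HSP70-2, a cytosolic HSP70, was at 439, 437 and 292 labelled CK and at 1182, 1579 and 1385 labelled AA, a rise of 1.84 (limma SE 0.19, adjusted p = 0.000144). The cytosolic HSP90-4 (0.91) and HSP90-3 (0.76) also rose. HSP90 and HSP70 genes are closely related in sequence, so reads could be split between them.

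**Figure D3:**
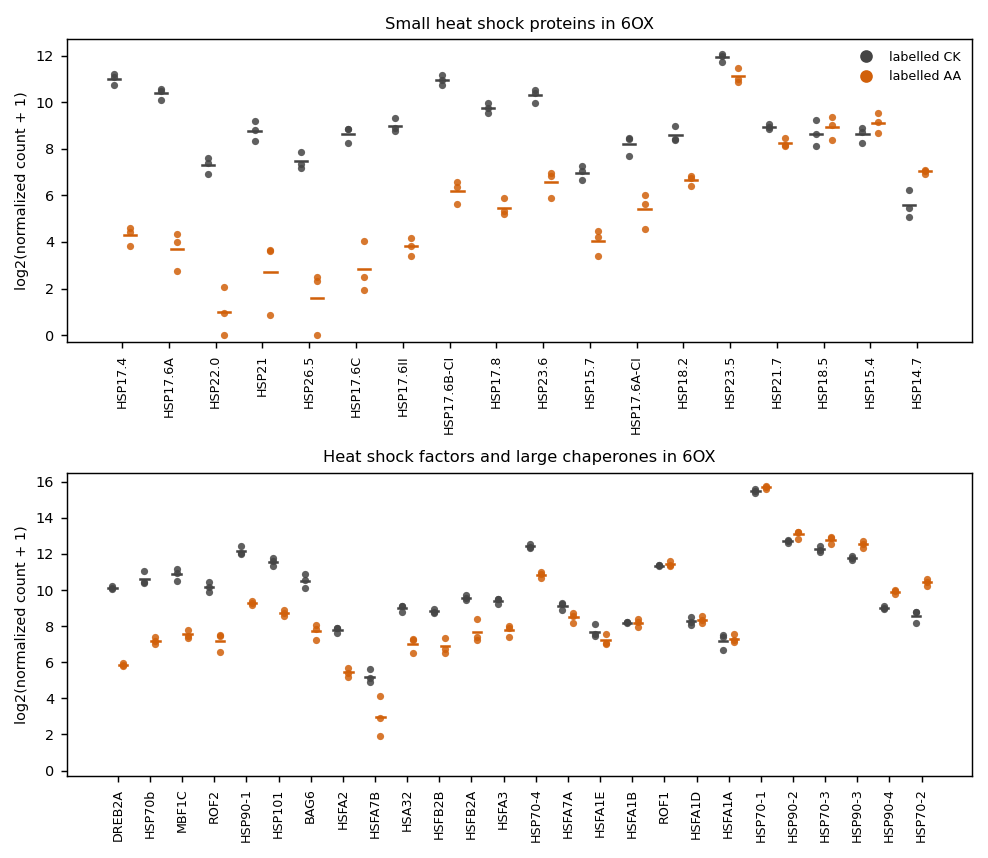
Level of small heat shock protein genes (top) and of heat shock factor and large chaperone genes (bottom) in 6OX, as log2(normalized count + 1), with 1 point per library (grey, labelled CK, orange, labelled AA) and bars at the mean of 3 libraries. The small heat shock genes on the left sit far lower under the AA label, HSP17.4 by 6.72, while HSP14.7 and HSP70-2 at the right ends sit higher.

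Promoters of HSP17.4, HSFA2 and DREB2A are shown because HSP17.4 and DREB2A had the largest falls of their lists and HSFA2 is the factor that sustains the response, and all 3 hold the heat shock element, GAANNTTC, given in capitals. The window, build, strand and source are as for the promoters above.
HSP17.4, chr3:16984868-16985117, minus strand: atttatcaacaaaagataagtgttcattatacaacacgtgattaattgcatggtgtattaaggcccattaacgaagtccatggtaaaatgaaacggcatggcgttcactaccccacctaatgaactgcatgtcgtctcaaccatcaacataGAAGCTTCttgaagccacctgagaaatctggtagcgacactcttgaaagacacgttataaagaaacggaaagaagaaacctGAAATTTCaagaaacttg
HSFA2, chr2:11135374-11135623, plus strand: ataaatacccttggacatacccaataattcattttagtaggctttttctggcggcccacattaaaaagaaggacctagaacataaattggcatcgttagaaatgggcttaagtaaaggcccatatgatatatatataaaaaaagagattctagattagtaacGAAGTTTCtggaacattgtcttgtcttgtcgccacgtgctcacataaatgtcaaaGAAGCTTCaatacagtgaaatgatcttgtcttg
DREB2A, chr5:1601955-1602204, plus strand: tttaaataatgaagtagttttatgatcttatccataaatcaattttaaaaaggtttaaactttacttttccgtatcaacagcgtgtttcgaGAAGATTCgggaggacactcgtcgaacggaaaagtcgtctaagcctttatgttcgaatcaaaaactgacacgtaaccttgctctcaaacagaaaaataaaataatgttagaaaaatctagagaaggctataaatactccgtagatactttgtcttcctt
The elements start 99 and 18 bases before the gene start in HSP17.4, 88 and 33 in HSFA2 and 159 in DREB2A. GAANNTTC reads the same on both strands and was found in 2621 of 27443 protein-coding promoters (9.55%) and in 2060 of 21848 among tested genes (9.43%). It was found in 4 of 18 small heat shock genes and in 5 of 26 heat shock factor and chaperone genes. All 5 of the latter were among the 15 called lower, with 0 among the other 11. The longer form GAANNTTCNNGAA, which contains the shorter one, was in 106 promoters (0.386%), 2 of the 18 and 4 of the 26. Promoters without a match were common in both lists, and no binding was measured.

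Chaperones of the endoplasmic reticulum moved in both directions. Of 24 genes, 8 were called higher and 4 lower, with a median of 0.44. Scaled by library totals 13 were higher and 3 lower, with a median of 0.72. The share called lower lay near the 13.7% over all genes. The calreticulin CRT1A was at 2182, 2187 and 1926 labelled CK and 4204, 4512 and 4609 labelled AA (log2 fold change 1.08, limma SE 0.13, adjusted p = 0.000291). BIP1, an abundant lumenal HSP70, was at 5537, 5973 and 5400.1 against 10187, 11311 and 10846 (0.94, limma SE 0.15, adjusted p = 0.00133). Both genes, with CNX1 (1.06), were higher in every library labelled AA.

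Other genes of the same list were lower. BIP3 was at 64.8, 214 and 103 labelled CK and 14.5, 3.13 and 13.2 labelled AA, a fall of 3.55 on the log2 scale (limma SE 0.60, adjusted p = 0.00189). ERDJ3A (-1.14) was also called lower. The unfolded protein response factor bZIP60 was called lower (-1.08, limma adjusted p = 0.0134), but not without AA-labelled library 1 (limma adjusted p = 0.0623). Of 12 mitochondrial chaperones, 1 was called higher and 2 lower (25% called, near the 26.3% over all genes tested), with a median of 0.07. The disaggregase CLPB4 (-1.55) was lower and the co-chaperone MGE2 (0.95) higher. The fall of mtHSC70-1 passed narrowly (-0.66, limma adjusted p = 0.0448). Its call was lost without CK-labelled library 1 or 3 or AA-labelled library 1 or 2 (adjusted p up to 0.193). The other 9 were not called.

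Stress-induced transcription factors were lower as a group under the AA label. Of 22 genes, mostly of the WRKY, ZAT and ERF families, 18 were called lower and none higher. All had negative log2 fold changes, with a median of -1.70. RRTF1, an ERF induced by redox imbalance, was at 321, 135 and 170.3 normalized counts labelled CK and at 0.803, 1.57 and 1.89 labelled AA (log2 fold change -6.37, limma SE 0.46, adjusted p = 2.63e-05). ZAT12, a zinc finger factor of the oxidative stress response, was at 5284, 5507 and 4282 against 515, 781 and 597 (-3.0, limma SE 0.18, adjusted p = 1.07e-05). In both genes each CK-labelled library was above each AA-labelled one. WRKY75 (-3.60), WRKY63 (-3.08), WRKY40 (-1.90) and WRKY33 (-1.29) were called lower, and WRKY30, WRKY53, ERF104 and ERF105 were not called.

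JAZ repressors of jasmonate signalling followed, with 9 of 12 called lower and 1 higher (median -1.43). Scaled by library totals, 6 were called lower and 1 higher (median -1.16). TIFY7 was at 1925, 2699 and 2251 labelled CK and 296, 523 and 207 labelled AA (log2 fold change -2.83, limma SE 0.29, adjusted p = 0.000128), and JAZ10 (-2.24) and JAZ5 (-2.01) were lower too. JAZ4 rose from 56.7, 13.2 and 23.7 to 205, 128 and 199 (2.68, limma SE 0.48, adjusted p = 0.00248), against the direction of the members called lower.

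Detoxification families were lower with a few members higher. Of 28 tau glutathione transferases, which conjugate glutathione to toxic compounds, 17 were called lower and 2 higher (median -0.93). Only 1 was higher when CK-labelled library 1 or 3 or AA-labelled library 1 or 3 was left out. Scaled by library totals, 14 were lower and 3 higher (median -0.65). GSTU3 was at 2619, 1767 and 1478 labelled CK and at 12.0, 48.6 and 5.66 labelled AA, a fall of 6.87 on the log2 scale (limma SE 0.60, adjusted p = 5.52e-05). Of 12 phi glutathione transferases, 5 were called lower, among them GSTF3 (-2.83) and GSTF8 (-1.98), and GSTF14 was called higher (2 genes higher without CK-labelled library 3). GSTF14 stood at 505, 472 and 377 labelled CK and 2829, 2712 and 2828 labelled AA (2.64, limma SE 0.15, adjusted p = 8.84e-06), with tight values within each label. Of 6 CYP81D cytochromes P450, 4 were called lower and none was called higher (1 without AA-labelled library 2), with CYP81D11 at 4063, 5503 and 5906 against 346, 309 and 153 (-4.32, limma adjusted p = 1.77e-05).

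Genes induced by carbon starvation and darkness were lower under the AA label. Of 20 genes tested, 18 were called lower, the other 2 were also lower but under the fold threshold, and the groups did not overlap in any of the 20 (median -2.0). BGLU30 (also known as DIN2), a beta-glucosidase of dark-treated leaves, was at 2121, 2724 and 2238 labelled CK and 99.6, 242 and 110.5 labelled AA (log2 fold change -4.07, limma SE 0.30, adjusted p = 2.67e-05). ASN1, an asparagine synthetase induced in the dark, was at 6259.6, 6954 and 10165 against 1419, 1714 and 789 (-2.62, limma SE 0.28, adjusted p = 0.00017). The aminotransferase BCAT2 (-2.96) and the glutamate dehydrogenase GDH2 (-2.59) fell as well, so amino acid catabolism genes were among the falls. Of 29 autophagy genes, 10 were called lower and none was called higher (median -0.51), or 4 lower (median -0.24) when scaled by library totals. The largest fall was that of ATG8E (-2.0), a ubiquitin-like protein of the autophagosome.

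Hypoxia genes moved in both directions. Of 13 genes, 4 were called higher and 2 lower (median 0.52), and 2 were called higher without CK-labelled library 1 or 3 or AA-labelled library 1. The share called lower lay near the 13.7% over all genes. The median was 0.02 without AA-labelled library 3 and 0.19 without CK-labelled library 3. HRE1, an ERF of the low-oxygen response, was at 269.7, 268 and 134 labelled CK and 922, 863 and 870.5 labelled AA, a rise of 2.05 (limma SE 0.26, adjusted p = 0.000364). HRA1, which restrains the same response, was at 1702, 1607 and 1104 against 5187, 3914 and 6643 (1.83, limma SE 0.22, adjusted p = 0.000329). HRE2 (-1.05) and the lactate dehydrogenase LDH (-1.18) were called lower. The alcohol dehydrogenase ADH1 was at 16688, 25209 and 12382 against 34409, 12801 and 38548 and not called (limma adjusted p = 0.35), and AA-labelled library 2 lay within the range of the CK-labelled ones.

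Light harvesting and clock genes were lower in part. Of 23 light harvesting and Rubisco genes, 8 were called lower and 1 higher (median -0.60), the antenna gene LHCB2.1 (-2.04) with the largest fall and the Rubisco small subunit RBCS1B (0.95) as the one rise. Reads of the near-identical antenna and Rubisco genes could be split between copies. Of 15 clock genes, 6 were called lower and 1 higher. PRR7, a pseudo-response regulator of the morning to noon phase, was at 2247, 1745 and 2689 labelled CK and 511, 210.0 and 326 labelled AA (log2 fold change -2.74, limma SE 0.29, adjusted p = 0.000152), and PRR9 (-3.70) and PRR5 (-2.72) fell with it. The dawn gene LHY was called higher (2.05, limma adjusted p = 0.0368), but not without CK-labelled library 2 or 3 or any one AA-labelled library (adjusted p up to 0.0927).

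Calcium genes moved in both directions. Of 21 calcium pumps and exchangers, 3 were called higher and 6 lower (median -0.19). Of 13 calmodulin-like proteins 2 were called higher and 4 lower (1 higher without CK-labelled library 3 or AA-labelled library 2). In both lists the share called higher lay near the 12.6% over all genes tested. The shares called in either direction were 42.9% and 46.2%, beside 26.3% over all genes. CAX1, the vacuolar calcium/proton exchanger, was at 6417, 6290.4 and 8169.6 labelled CK and 12475, 17638 and 12004 labelled AA (log2 fold change 1.0, limma SE 0.20, adjusted p = 0.00507). ACA9, a plasma membrane calcium pump best known from pollen, was low but higher in all AA-labelled libraries, at 5.79, 4.40 and 7.89 against 39.4, 54.8 and 68.0 (2.97, limma adjusted p = 0.000817). AT3G63380, annotated as an E1-E2 type ATPase, was at 19014, 14209 and 12657 against 4133, 6354 and 5167 (-1.55, limma SE 0.22, adjusted p = 0.000684). Of the calmodulin-like genes the EF-hand gene AT1G76640 (-5.13) and CML37 (-2.60) were lower, and the touch gene TCH2 (0.98) was higher while TCH3 (-1.40) was lower.

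Cell wall and auxin growth genes were mostly higher under the AA label. Of 20 alpha-expansins, which loosen the wall, 14 were called higher and 1 lower (median 1.69), and none was called lower without CK-labelled library 3 or AA-labelled library 1. EXPA8 was at 31.3, 87.1 and 66.2 normalized counts labelled CK and at 1207, 1225 and 933 labelled AA, a rise of 4.27 (limma SE 0.33, adjusted p = 3.45e-05). EXPA1 was at 534, 594 and 487 against 2708, 2944 and 2959.7 (2.42, limma SE 0.13, adjusted p = 8.84e-06). In both genes each AA-labelled library was above each CK-labelled one.

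Xyloglucan endotransglucosylases, which cut and rejoin wall polymers, held both directions. Of 30 genes, 14 were called higher and 6 lower (median 0.60). XTH12 was listed at 1.16, 0 and 0 labelled CK and 185, 254 and 221 labelled AA, 1 read against 788, a ratio of 580 with a 95% counting interval of 104 to 22930. XTH31 was at 145, 82.7 and 69.4 against 2434, 3172 and 2998 (4.91, limma SE 0.25, adjusted p = 6.60e-06). XTH30 (-1.80) and XTH18 (-1.42) were called lower, so the family did not move as one, and without CK-labelled library 2 the genes called lower numbered 3. Of 71 SAUR genes, small auxin-response genes that promote cell expansion, 37 were called higher and 4 lower (median 1.49), with SAUR28 (3.73) and SAUR20 (2.83) among the rises and AT5G50760 (-1.60) the largest called fall. Without AA-labelled library 1, 24 SAUR genes were called higher, and without it, CK-labelled library 2 or AA-labelled library 3 those called lower numbered 2.

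Root cell markers were higher under the AA label. All 5 root hair markers were called higher, with a median log2 fold change of 4.46, and their summed level was 47.3 to 105 normalized counts in the libraries labelled CK and 1133 to 1871 in those labelled AA. RSL4, the factor that drives root hair growth, had 3 reads over the libraries labelled CK and 194 over those labelled AA, a ratio of 47.6 with a 95% counting interval of 16.0 to 233. Of 6 endodermis and stele markers 5 were called higher (median 1.75), with sums of 1223 to 2021 against 3055 to 4972. CASP1, which forms the Casparian strip, was at 172, 155 and 153 labelled CK and 682, 650.3 and 568 labelled AA (1.98, limma SE 0.16, adjusted p = 4.65e-05).

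Shoot markers were not called more often than genes at large. Of 6 leaf mesophyll markers 1 was called (16.7%), LHCB3 (-1.40), with a median of -0.36. Of 4 guard cell markers 1 was called (25%), the potassium channel KAT1 (-0.98), with a median of -0.57 (2 called without CK-labelled library 2). Over all genes tested the share was 26.3%, and lists this short cannot be told from it. No leaf or guard cell marker was at 0 in any library. The 2 expansins on the root hair list aside, 12 of the other 18 expansins were called higher, with a median of 1.44. Root hair marker medians were 4.03 in Col and 3.58 in 4OX, so these markers moved with the AA label in those lines too. What part differing shares of root tissue have in the wall gene values was not tested.

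**Figure D4:**
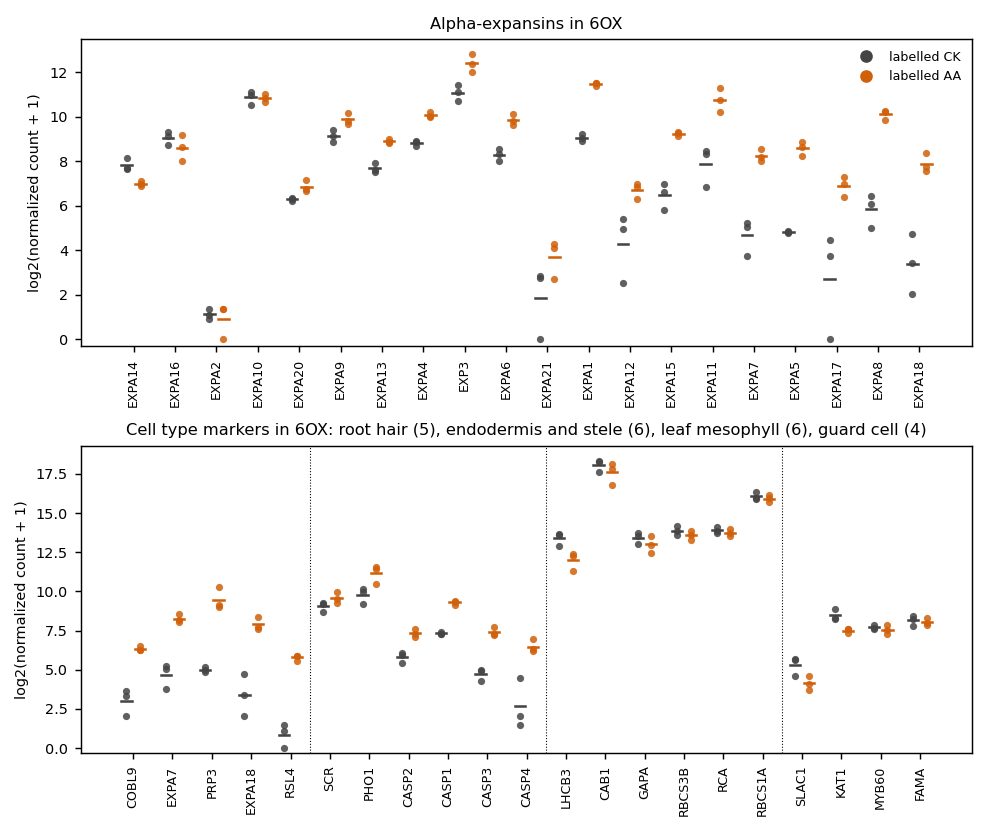
Level of each alpha-expansin gene (top) and of root hair, endodermis and stele, leaf mesophyll and guard cell markers, parted by dotted lines (bottom), in 6OX, as log2(normalized count + 1), with 1 point per library (grey, labelled CK, orange, labelled AA) and bars at the mean of 3 libraries. All 5 root hair markers and expansins such as EXPA8 sit higher under the AA label without overlap, while the leaf marker RCA overlaps.

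The genes with the largest rises and falls overall included members of these families. Besides XTH12, XTH13 and XTH26, the 10 largest rises held the wall extensins EXT11 and EXT13, the proline-rich protein PRP1, a peroxidase (AT1G34510), a lipid-transfer type protein (AT4G22666), a Rossmann-fold protein (AT2G17845) and a pectin methylesterase inhibitor type protein (AT5G04960). PRP1 was at 8.10, 9.67 and 1.58 labelled CK and 299.6, 287 and 515 labelled AA (log2 fold change 5.81, limma SE 0.54, adjusted p = 7.04e-05). EXT11 was at 1.16, 6.16 and 0 against 256, 115 and 491 (6.62), with a wide spread under each label. The 10 largest falls held GSTU3, RRTF1, the heat shock genes HSP17.4, HSP17.6A, HSP22.0, HSP21 and HSP26.5, a protease inhibitor (AT5G43570, -6.34), an oxidoreductase (AT1G60750, -5.94) and AT4G33467, an uncharacterized gene with 282 reads labelled CK against 1 labelled AA.

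Few genes for the respiratory chain itself were called. Of 75 nuclear OXPHOS genes, which encode subunits of the respiratory complexes, 1 was called higher and 1 lower (2.67%, median -0.07), against 26.3% over all genes tested. Those called lower numbered 4 without AA-labelled library 2, 2 without CK-labelled library 1 and 0 without AA-labelled library 1, and those called higher 2 without CK-labelled library 2. Of 15 protein import genes 3 were called higher and 2 lower (33.3% called, median 0.16), with 1 lower without CK-labelled library 1 or AA-labelled library 1 or 3. The share of import genes called lower lay near the 13.7% over all genes. Of 12 mitochondrial proteases 1 was called higher, and none was without CK-labelled library 2 or 3 or AA-labelled library 1 or 3. Of 58 mitochondrial ribosome genes 6 were called higher and 1 lower (median 0.28), and of 125 cytosolic ribosomal protein genes 15 were called higher and 1 lower (median 0.27), so both shares of rises were below the 12.6% over all genes. Without CK-labelled library 3 the genes called higher were 3 and 7, without AA-labelled library 2 they were 3 of the mitochondrial and without AA-labelled library 1 they were 8 of the cytosolic list. With scaling by library totals they were 27 and 59, with medians of 0.56 and 0.55 beside 0.30 over all genes, and the OXPHOS median was 0.21. RPL3B was at 735, 791 and 765 labelled CK and 1245, 1515 and 1441 labelled AA (0.87, limma SE 0.13, adjusted p = 0.00109), and SAG24 was the one cytosolic gene called lower (-1.28). The medians of the cytosolic list were -0.02 in Col and -0.00435 in 4OX, and the difference of these medians was not tested. These lists were taken from the study and are not independent evidence of a direction.

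Some genes of the mitochondrial genome were called lower, and 1 of the plastid genome. Of 78 mitochondrial genome genes 20 were called lower (25.6%) and none was called higher (median -1.61). Over all genes tested 13.7% were called lower and 26.3% in either direction. Of 110 plastid genome genes 1 was called lower (median -1.06). With DESeq2 the mitochondrial and plastid genes called lower numbered 31 and 12, and with a replicate block 39 and 43. Without CK-labelled library 2 the genes called lower numbered 40 and 34, and without AA-labelled library 3 they numbered 33 and 35. Those of the plastid genome numbered 2 without library 1 of either label and 0 without CK-labelled library 3 or AA-labelled library 2. Summed mitochondrial genome levels ran from 17420 to 143947 normalized counts labelled CK and from 15734 to 69724 labelled AA, and those of the plastid genome from 21773 to 166944 and from 23890 to 80271, so the groups overlapped in both. In the 3 libraries with over 1% nuclear ribosomal RNA, the mitochondrial genome took 0.297% to 0.498% of reads and the plastid genome 0.314% to 0.578%, against 0.0584% to 0.0760% and 0.0730% to 0.121% in the other 3. With the class of nuclear ribosomal RNA as a covariate, an alternative chosen after seeing the data, the mitochondrial median was -1.22 with 20 genes called lower and the plastid median -0.54 with 9.

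Col and 4OX, treated in the same way, allow the response to be set beside those of the wild type and of another overexpressor. In Col 4155 of 22774 genes (18.2%) were called and in 4OX 5988 of 23315 (25.7%). Of the 6OX calls, 4327 (71.5%) were called in the same direction in 4OX, which is 72.5% of the calls of 4OX among genes tested in both, and 5 in the opposite one. With Col the shared calls numbered 3064, 50.6% of the 6OX calls and 73.8% of those of Col, with 2 opposite. No library is shared between these comparisons.

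The difference between responses was tested directly, by the interaction of line and label on jointly scaled reads. It passed an adjusted p of 0.05 in 1 of 22713 genes against Col (0.0044%) and in 2 of 22921 against 4OX (0.00873%), while 3068 (13.5%) and 1265 (5.52%) had an unadjusted p under 0.05. With edgeR the counts were 2 and 2. Leaving out the libraries numbered 3 gave 242 genes against Col, and leaving out those numbered 2 gave 21 against 4OX, while other such omissions gave 0. On simulated reads 4-fold differences were recovered in 98% of genes for Col and 100% for 4OX, but 1.5-fold differences in 24% and 34%. The simulated spread was a set value, not estimated from these libraries, and changed genes had a mean of at least 20. These shares therefore do not say how many real differences of such size would pass. BIP3, for one, differed from Col by -3.01 on the log2 scale (limma SE 0.78, adjusted p = 0.12) and did not pass. The Col libraries labelled CK held 1.47% to 6.24% nuclear ribosomal RNA and those labelled AA 0.0531% to 0.0678%, so in Col the label and ribosomal RNA content cannot be told apart.

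Some alternative respiration genes had larger log2 fold changes in 6OX than in Col, but no such difference passed the test. AOX1D had log2 fold changes of -4.0 in 6OX, -1.96 in Col and -3.44 in 4OX, and the 6OX response minus that of Col was -2.02 (limma SE 0.70, adjusted p = 0.212). NDA2 had -1.66 in 6OX, -0.38 in Col and -1.42 in 4OX (difference from Col -1.27, SE 0.30, limma adjusted p = 0.0981). HSP17.4 had log2 fold changes in the 3 lines of -6.72, -6.29 and -6.73 (difference from Col -0.41, SE 0.37, limma adjusted p = 0.717). By list medians, the stimulon stood at -1.25 in 6OX, -0.76 in Col and -1.03 in 4OX and the small heat shock proteins at -4.01, -4.23 and -3.84.

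**Figure D5:**
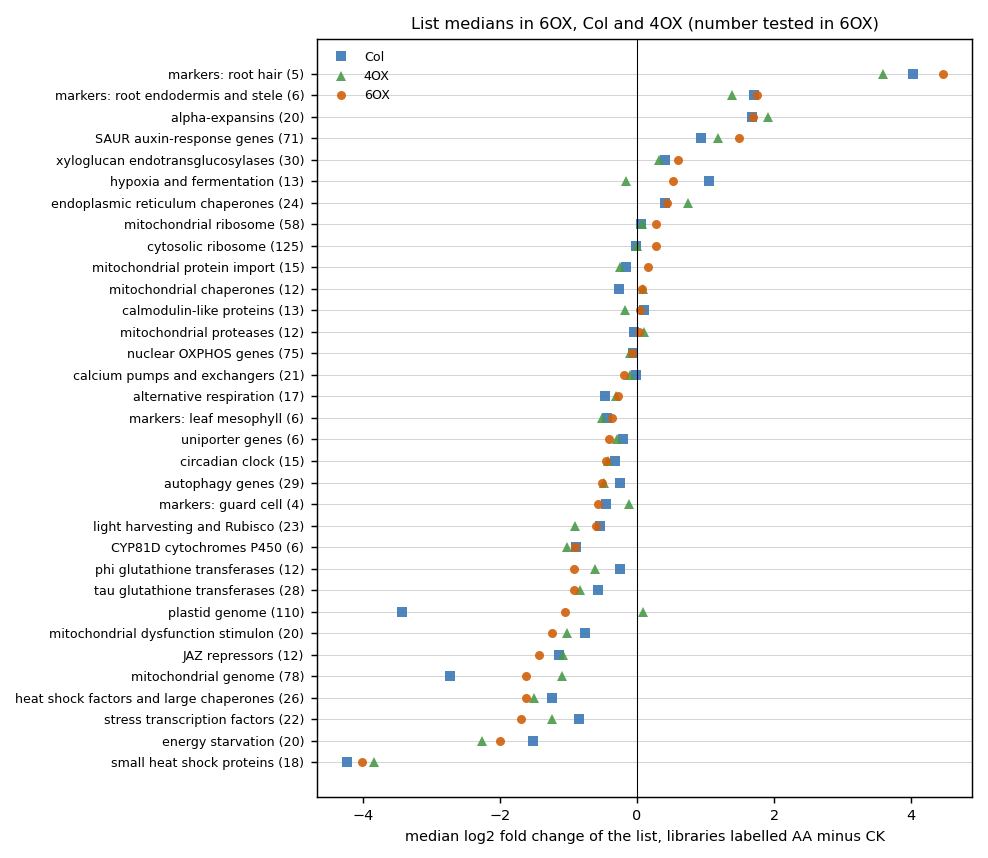
Median log2 fold change of AA-labelled over CK-labelled libraries for each gene list in 6OX, Col and 4OX, each line fitted on its own 3 against 3 libraries. Small heat shock proteins lie near -4 in all 3 lines (-4.01, -4.23 and -3.84), and the plastid genome list is spread most widely, at -1.06, -3.43 and 0.09.

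The gene that differed from Col was AT5G59680, annotated as a leucine-rich repeat kinase. It was at 3365, 2814 and 2217 normalized counts in 6OX labelled CK and 537, 681 and 545 labelled AA, and its log2 fold change was -2.24 in 6OX, -0.33 in Col and -1.47 in 4OX. LAC7, a laccase, was at 183, 135 and 155 against 312, 277 and 372 in 6OX and rose there (1.02) but had a log2 fold change of -1.43 in 4OX. GTR1, a glucosinolate transporter, was at 763, 643 and 587 against 333, 344 and 363 in 6OX (-0.93) and at 0.87 on the log2 scale in 4OX.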

How the data were processed

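RNA was sequenced from whole seedlings. Reads were mapped by the authors to TAIR10 (Bowtie 0.12.2 per the submitters' processing notes). Whether counting used strand is not given in the sources used here, so overlapping and antisense genes cannot be told apart. The deposited values are a signal: gene read counts divided by 1 size factor per library, with each table scaled on its own. Whole reads were recovered for 421254 of 421254 values (100%, tolerance 0.02). The authors' own fold changes and p-values were not used.

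Genes with a mean of at least 1 were tested on log2(value + 1) with limma 3.58.1 (trend, two-sided, R 4.3.3) and called past 1.5-fold with adjusted p under 0.05. Interactions used reads recovered from pairs of tables and scaled together. Alternatives were DESeq2 1.42.0 and edgeR 4.0.16 fits of recovered reads, and pseudocounts, filters, scalings and left-out libraries were varied. The tests were also run on simulated reads with a set spread.

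Members, lists and tests were chosen with earlier results of these data known. From 3 lists, 14 genes matched by a shared symbol were left out after values were seen. Named are all genes of the uniporter and alternative respiration lists (1 further uniporter family member is not reported here), up to 3 called members with the largest rise and fall of each other list (mean at least 20), the 10 largest rises and falls (mean at least 50, no overlap), and interaction genes. Further members were named for their known roles after their values were seen. Of the IDs, 23127 of 23363 matched the RefSeq annotation. Totals of 18321760 to 33895759 reads per library limit precision for genes of few reads, and intervals cover counting error only.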

Additional observations from a re-analysis of the deposited data

Results flagged for a closer look

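The response of 3 genes differed between lines by the interaction of line and label (two-sided limma test, 3 libraries per group). AT5G59680 fell more in 6OX than in Col, with a difference of -1.89 on the log2 scale (SE 0.24, limma adjusted p = 0.048). Its jointly scaled level was 2887 ± 597 (SD, n = 3) in 6OX labelled CK and 609 ± 82.7 labelled AA, against 1033 ± 49.8 and 821 ± 170 in Col, so the lines differed most under the CK label. The difference from 4OX was -0.77 (limma adjusted p = 0.641) and did not pass.

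LAC7 differed from 4OX by 2.45 on the log2 scale (SE 0.25, limma adjusted p = 0.00515). It was at 162 ± 25.4 (SD, n = 3) and 333 ± 50.9 in 6OX labelled CK and AA, and at 730 ± 152 and 269 ± 15.8 in 4OX, so the order of the labels was opposite in the 2 lines. GTR1 differed from 4OX by -1.80 (SE 0.21, limma adjusted p = 0.0106), with 685 ± 94.2 and 359.9 ± 17 in 6OX and 154 ± 23.0 and 282 ± 8.53 in 4OX. For these 2 genes the directions follow the headings of both treatment tables. The call of AT5G59680 was lost when the libraries numbered 1 or 2 were left out, that of LAC7 without those numbered 1 or 3, and that of GTR1 without those of any 1 number.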

How the results depend on the processing

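The count of genes called between the labels in 6OX stayed between 5469 and 7328 when the pseudocount, filter, scaling, trend, organelle genes or tool was changed, and between 4617 and 5739 (1938 to 2622 higher) when 1 library was left out, lowest without AA-labelled library 1. A 2-fold threshold with an adjusted p under 0.01 left 2878 genes, 1188 of them higher, which follows from the stricter threshold. Scaling by library totals gave 5173 genes higher. Class of nuclear ribosomal RNA as a covariate, added after the data were seen, gave 6780 calls, with 18 stimulon, 15 small heat shock and 18 starvation genes lower as before, but 13 light harvesting genes lower in place of 8, 14 autophagy genes in place of 10 and 9 plastid genome genes in place of 1, and 11 cytosolic ribosome genes higher in place of 15. Same-numbered libraries showed no clear pairing. Correlations of their deviations were -0.059, 0.29 and 0.11, beside -0.39 to 0.30 for libraries of different number. A replicate block gave 6517 calls in place of 6055, and whether replicates were paired was not settled.

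The interaction with Col gave 2 genes with edgeR, 0 with a mean of at least 10, 0 without the variance trend, 245 with a replicate block and 0 to 242 when replicates were left out. The interaction with 4OX gave 2 with a replicate block and 0 to 21 when replicates were left out. For these changes the cause was not tested. Of 2496 comparisons over 139 named genes, 2421 kept direction and side of the threshold, 70 lost and 5 gained the call and 0 turned, and 118 genes kept theirs throughout. When 1 library was left out, 17 named genes lost their call at least once. Genes with few reads, such as XTH12, AOX2 and MCU4, are limited by depth.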
